A study of Homo sapiens with 40 samples.

Results

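The genes described here are 59 genes of the short arm of human chromosome 17, taken by symbol from a table of raw counts for 28278 gene symbols. They were chosen by their measured differences between lines in these data, so the differences between lines are a description. Genes called lower or higher between lines, or not past the threshold, are counted from a fit over all genes to describe the 59, and those calls are no evidence about them. RefSeq (GRCh38.p14) places all 59 on the short arm, from VPS53 (chr17:508668-714839) to AKAP10 (chr17:19904302-19977828). All 59 passed the filter on low counts, among 291 tested genes of the arm and 16739 tested genes in all. The question was whether the arm is low as a block in 3 of the 4 lines labelled as made from SLC25A12-targeted cells.

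Poly(A) RNA was sequenced in 40 libraries of HEK293T, an established line from human embryonic kidney that expresses the large T antigen of simian virus. The 5 lines were wild-type cells with vector (WT vector), SLC25A12 knockout cells with vector (sgSLC25A12 vector, here knockout-vector cells), and 3 further sgSLC25A12 lines. By their labels these 3 carried SLC25A12-WT, SLC25A12-F137S, or SLC25A12-F137S together with dMTS-DELE1. They are called here the libraries labelled SLC25A12-WT, the F137S cells and the dMTS-DELE1 cells. Each line was treated for 6 h with vehicle or with 40 nM antimycin A, which blocks electron flow through complex III of the respiratory chain, with 4 libraries in each of the 10 groups. The labels call the 4 libraries biological replicates and do not say that they came from separate cultures, so the p-values below then measure only the spread between these libraries. The sources used here do not give whether a line is a single clone or which promoter drives the added genes. By their labels all 4 sgSLC25A12 lines share the guide, and the dMTS-DELE1 cells also carry F137S.

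Library totals ran from 30730335 to 31965438 counts. SLC25A12, which encodes the mitochondrial aspartate-glutamate carrier AGC1, had 36.1 to 39.9 CPM (counts scaled to a common library total) in WT-vector cells under vehicle and 2.96 to 3.43 in knockout-vector cells, a log2 fold change of -3.65 ± 0.047 (SE). It had 38.4 to 39.2 CPM in the libraries labelled SLC25A12-WT, inside the WT-vector range, and 1826 to 1867 and 3693 to 3745 in the F137S and dMTS-DELE1 cells. The level of SLC25A12 thus does not set the libraries labelled SLC25A12-WT apart from WT-vector cells, and whether they carry the guide and the added gene was not tested. DELE1 had 5272 to 5464 CPM in the dMTS-DELE1 cells and 48.0 to 51.6 in WT-vector cells. Of the kidney markers, UMOD was at 0 in every library and PAX8, CDH16, AQP2 and SLC34A1 had a median of 0 CPM. PAX2 ran from 1.81 to 3.91 CPM over single libraries (median 2.54), and the neurofilament gene NEFL from 45.1 to 85.8 (median 63.6).

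The short arm of chromosome 17 is gene-dense, and its genes share a position and no common function. It is known in medicine for contiguous deletions: loss of PAFAH1B1 and YWHAE accompanies Miller-Dieker lissencephaly, and loss of RAI1 accompanies Smith-Magenis syndrome. The 59 genes include general cell machinery such as the largest subunit of RNA polymerase II (POLR2A), the central splicing factor PRPF8 and the actin-binding profilin PFN1. DELE1 is a mitochondrial protein that relays mitochondrial stress to the integrated stress response. The files hold RNA counts only, and in bulk RNA fewer cells of a type and less RNA per cell cannot be told apart.

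The level of the 59 genes was summarised in each library as the mean of their log2 CPM. Under vehicle this mean was 6.43 ± 0.019 (SD, n = 4) in WT-vector cells and 6.25 ± 0.018 in knockout-vector cells. It was 6.24 ± 0.0093 and 6.17 ± 0.021 in the F137S and the dMTS-DELE1 libraries. The libraries labelled SLC25A12-WT had 6.43 ± 0.017. All 4 libraries of the knockout-vector, F137S and dMTS-DELE1 cells lay below all 4 WT-vector libraries, and those labelled SLC25A12-WT overlapped them. Under antimycin the means were 6.40 ± 0.016 in WT-vector cells, 6.22 ± 0.011 in knockout-vector, 6.20 ± 0.025 in F137S and 6.15 ± 0.021 in dMTS-DELE1 cells, with 6.41 ± 0.014 in the libraries labelled SLC25A12-WT. The same 3 lines were again below WT-vector cells with no overlap.

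**Figure D1:**
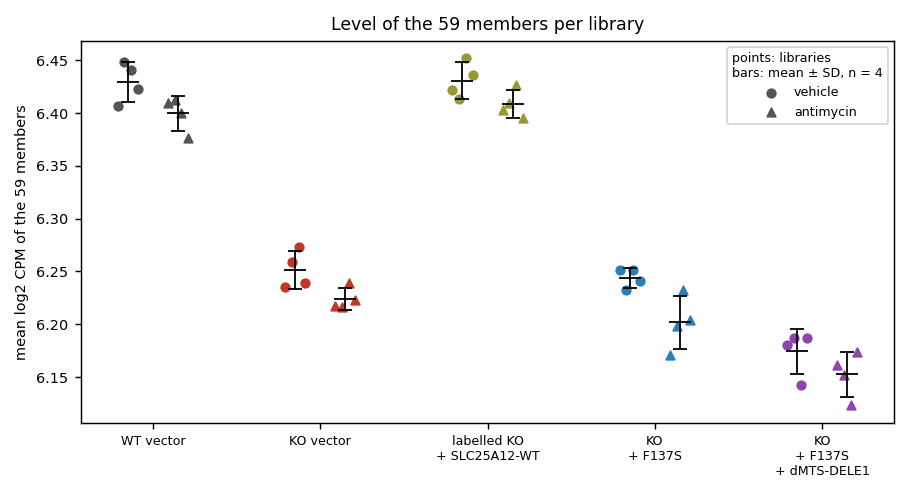
Mean log2 CPM of the 59 genes in each of the 40 libraries, by line and treatment, with the mean and SD of each group of 4. The libraries of knockout-vector, F137S and dMTS-DELE1 cells sit below those of WT-vector cells, and the libraries labelled SLC25A12-WT sit among them.

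Against WT-vector cells under vehicle, 45 of the 59 genes (76.3%) were lower in knockout-vector cells and 3 were higher at an adjusted p < 0.05 (edgeR's quasi-likelihood test with Benjamini-Hochberg adjustment over all tested genes). Over all tested genes, 25.6% were called lower and 22.7% higher in this comparison. The median log2 fold change of the 59 was -0.19, a level 12.2% lower, against -0.01 over all tested genes. In F137S cells 45 were lower and 2 higher (25.8% and 23.4% of all tested genes), with a median of -0.21. In dMTS-DELE1 cells 48 were lower and 3 higher (32.6% and 29.2%), with a median of -0.29, a level 18.1% lower. Since the choice of genes used these contrasts, nothing is read from the distance between the counts and the shares over all genes. The number higher depended on single libraries and on scaling: it became 1 in both lines when the scaling factors left out chromosomes 17 and 19, 1 in F137S cells without WT-vector replicate 4 or F137S replicate 2, and 1 in dMTS-DELE1 cells without dMTS-DELE1 replicate 4 (1 to 4 over single libraries left out). The 3 lines share the WT-vector libraries as controls.

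The libraries labelled SLC25A12-WT did not show this. None of the 59 genes was called lower or higher by edgeR under vehicle, as was the case for 0% of all tested genes in each direction, and the median was -0.0032. At an unadjusted p under 0.05, 1 of the 59 was lower and 1 higher (380 and 398 of the 16739 tested genes), and DESeq2's Wald test also called 0. Under antimycin edgeR again called none of the 59 (0.00597% of all tested genes were called lower and 0% higher), with 2 lower and 2 higher at an unadjusted p under 0.05 (386 and 419 of all tested genes) and 0 by DESeq2.

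Under antimycin the difference between lines was of similar size. In knockout-vector cells 48 of the 59 were lower and 0 higher (24.5% and 23.5% of all tested genes), with a median of -0.19; 1 was higher when knockout-vector antimycin replicate 1 was left out. In F137S cells 46 were lower and 0 higher (24.8% and 23.7%), with a median of -0.20. None of the 59 was higher at an unadjusted p under 0.05 in these 2 comparisons (4358 and 4387 of all tested genes were), or by DESeq2. In dMTS-DELE1 cells 44 were lower and 3 higher (33.3% and 32.2%), with a median of -0.28. Across the 59 genes the knockout-vector differences under vehicle and under antimycin, which share no library, had a Pearson r of 0.877. Spearman's rho was 0.872, r over all tested genes was 0.802, and 58 of 59 had the same sign. In F137S cells r was 0.704 (0.803 over all tested genes) with 55 of the same sign. In dMTS-DELE1 cells it was 0.850 (0.843) with 52 of the same sign. These values are given as a description.

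Taking the 3 lines and both treatments as 6 comparisons, 45 of the 59 genes (76.3%) had a mean below WT vector in all 6, against 27.8% of all tested genes. Called lower in all 6 were 37 genes (62.7%), against 13.8% of all tested genes. Called lower in none of the 6 were 6 genes, namely PRPF8, YWHAE, MAPK7, SMG6, SRR and DVL2 (52.8% of all tested genes were called lower in none). Called higher in any of the 6 were 8, namely MAPK7, SMG6, ULK2, POLR2A, KDM6B, NCOR1, DVL2 and AKAP10 (46.1% of all tested genes). A further view counts genes library by library. In each knockout-vector library under vehicle, 52 to 54 of the 59 lay below the WT-vector mean; in F137S libraries it was 51 to 54 and in dMTS-DELE1 libraries 50 to 53. In the libraries labelled SLC25A12-WT the number was 24 to 34, and in the WT-vector libraries themselves 26 to 28. Every library of the 3 lines showed the low level. The genes were chosen by contrasts of these same libraries, so the counts by library are a description. The same counts over all tested genes were not taken.

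**Figure D2:**
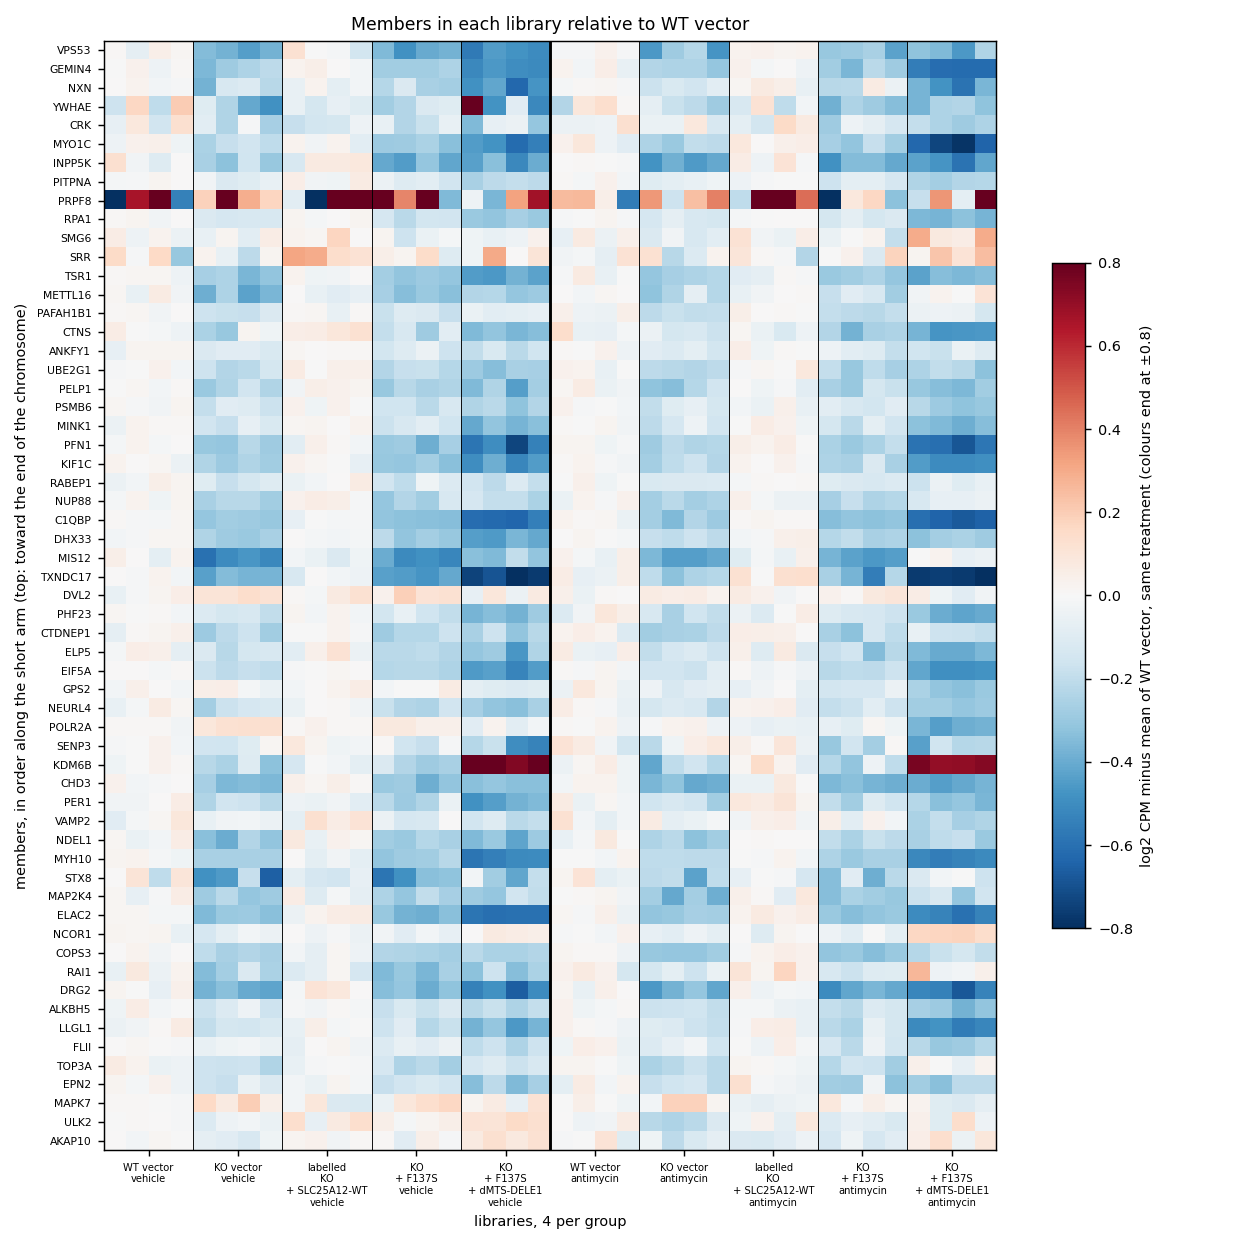
Log2 CPM of each of the 59 genes (in order along the chromosome) in each of the 40 libraries, relative to the WT-vector mean under the same treatment; the colour scale ends at -0.8 and 0.8. The columns of knockout-vector, F137S and dMTS-DELE1 cells are mostly on the low side along the arm, and those labelled SLC25A12-WT are not. The last genes in order, MAPK7, ULK2 and AKAP10, were below WT vector in only 1, 3 and 4 of the 6 comparisons of these lines.

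Along the chromosome the low levels were not limited to the 59 genes. The other 232 tested genes of the short arm had a median log2 fold change of -0.20 in knockout-vector cells under vehicle, with 111 called lower and 16 higher. The 709 tested genes of the long arm had a median of -0.06, with 220 lower and 133 higher. Over all tested genes 25.6% were called lower and 22.7% higher in this comparison. In windows of 5 Mb, over genes with a mean log2 CPM of at least 3, the median was -0.19 from 0 to 5 Mb, -0.22 from 5 to 10 Mb, -0.27 from 10 to 15 Mb and -0.19 from 15 to 20 Mb. The low medians went past the short arm: they were -0.36 and -0.35 in the windows from 25 to 30 and from 30 to 35 Mb on the long arm, -0.14 from 35 to 40 Mb, between -0.13 and -0.03 in the windows from 40 to 55 Mb, and between -0.06 and 0.05 in those from 55 to 85 Mb.

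The short arm of chromosome 17 was not the lowest arm. Ranked by the median over tested genes among 41 chromosome arms, the short arm of chromosome 19 was first in all 6 comparisons. In knockout-vector cells under vehicle its median was -0.50 over 489 genes, with 362 genes lower and 17 higher (25.6% and 22.7% of all tested genes). The short arm of chromosome 17 was next in all 6, with a median of -0.19 over its 291 genes in that comparison. The short arm of chromosome 16 followed, with -0.11. In the libraries labelled SLC25A12-WT under vehicle, the short arm of chromosome 17 ranked 38 of 41 with a median of 0.01.

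**Figure D3:**
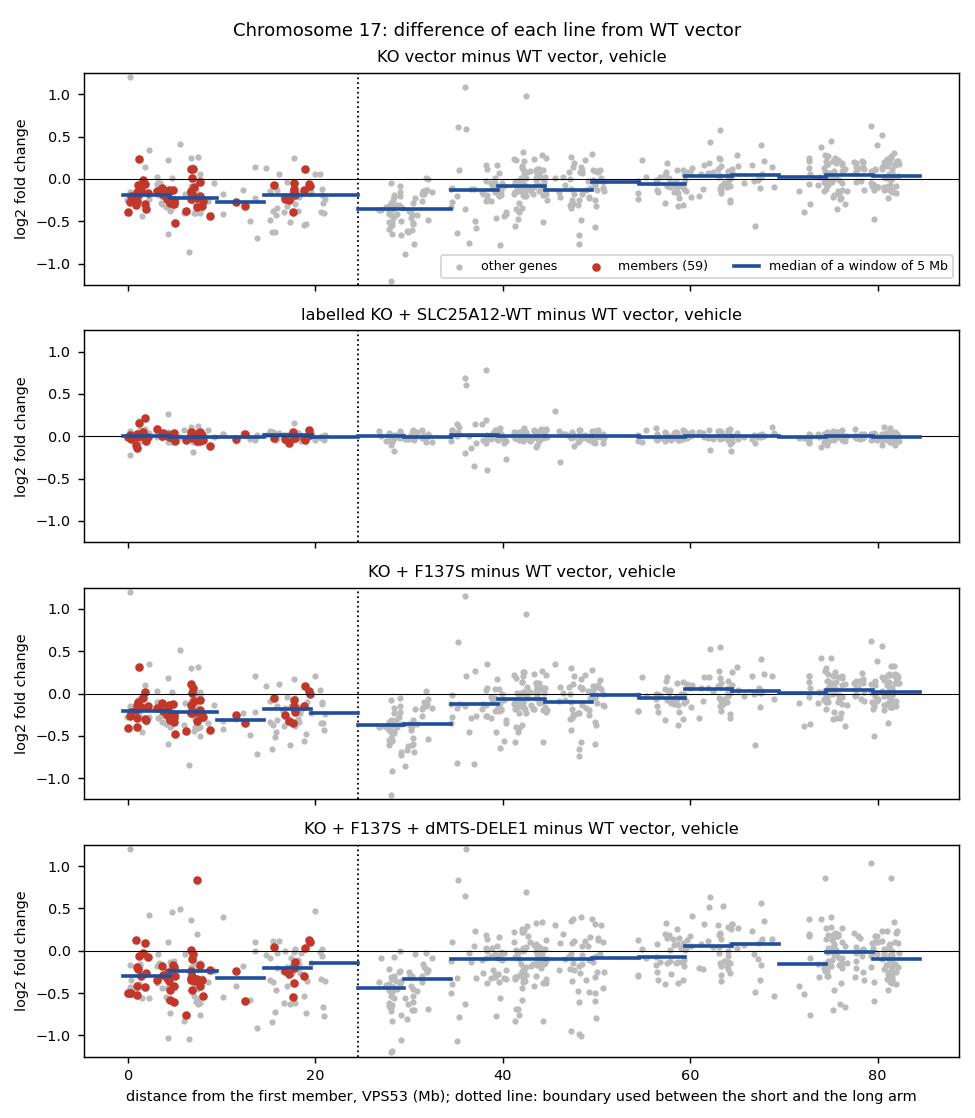
Log2 fold change against WT vector under vehicle for the genes of chromosome 17, by distance in Mb from VPS53, in the 4 lines labelled sgSLC25A12. Red points are the 59 genes and grey points the other genes drawn. Blue lines are the medians in windows of 5 Mb, and the dotted line is the end of the short arm. In knockout-vector, F137S and dMTS-DELE1 cells the medians are below 0 over the short arm and the start of the long arm, and in the libraries labelled SLC25A12-WT they stay near 0.

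By role, RNA processing and translation held 11 of the genes, and 9 were lower and 0 higher in knockout-vector cells under vehicle (median -0.27). Over all tested genes 25.6% were lower and 22.7% higher in that comparison, 25.8% and 23.4% in F137S cells, and 32.6% and 29.2% in dMTS-DELE1 cells. The genes were chosen by these contrasts and each role holds few, so nothing is read from the counts by role given here and below. EIF5A, a translation factor that carries the modified residue hypusine, had 808, 808, 796 and 812 CPM in the 4 WT-vector libraries, 715, 696, 708 and 700.1 in knockout-vector cells and 589, 597, 559 and 592 in dMTS-DELE1 cells. The 3 groups did not overlap, and the log2 fold changes were -0.19 ± 0.018 in knockout-vector and -0.46 ± 0.018 in dMTS-DELE1 cells; reads of its near-identical copy EIF5AL1 may be shared with it. ELAC2, the nuclease that trims the 3′ ends of transfer RNAs, had 215, 215, 211 and 211 CPM in WT-vector cells, 167, 173, 174 and 169 in knockout-vector and 142, 139.9, 141 and 141 in dMTS-DELE1 cells. Again no values overlapped, and the dMTS-DELE1 cells were lowest (-0.60 ± 0.024, against -0.32 ± 0.024 in knockout-vector cells).

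METTL16, an RNA methyltransferase that acts on the transcript of the S-adenosylmethionine synthetase MAT2A, had 108, 102, 112 and 105 CPM in WT-vector and 81.0, 89.9, 79.2 and 82.7 in knockout-vector cells. Its log2 fold change was -0.36 ± 0.037 under vehicle and -0.21 ± 0.038 under antimycin. DRG2, a GTPase of the developmentally regulated family, was among the lowest of the 59 in knockout-vector cells (-0.39 ± 0.039) and in dMTS-DELE1 cells (-0.55 ± 0.039). PRPF8, the core protein of the U5 snRNP, was too variable to tell whether it differed from its neighbours. Its CPM were 51.7, 185, 245 and 80.3 in WT-vector and 133, 254, 143 and 132 in knockout-vector libraries. The values scattered within each group, the groups overlapped, and its log2 fold change of 0.24 ± 0.42 did not pass. SMG6, the endonuclease of nonsense-mediated decay, had -0.016 ± 0.054 in knockout-vector and -0.023 ± 0.054 in dMTS-DELE1 cells under vehicle, neither past the threshold.

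Transcription, chromatin and DNA maintenance held 13 genes, of which 11 were lower and 1 higher in knockout-vector cells (median -0.19). MIS12, a subunit of the kinetochore that joins chromosomes to spindle microtubules, was the lowest of the 59. Its CPM were 72.0, 69.9, 66.1 and 71.1 in WT-vector, 46.1, 49.1, 50.4 and 48.7 in knockout-vector, 52.9, 48.9, 49.9 and 48.5 in F137S and 55.3, 54.7, 60.8 and 56.0 in dMTS-DELE1 cells. The libraries labelled SLC25A12-WT had 68.6, 67.3, 64.4 and 68.1. Knockout-vector and F137S cells overlapped each other, dMTS-DELE1 cells lay between them and WT-vector cells, and the log2 fold changes were -0.52 ± 0.038, -0.48 ± 0.038 and -0.30 ± 0.038. Under antimycin the dMTS-DELE1 cells had 57.8, 59.03, 55.3 and 56.2 CPM against 59.3, 57.3, 55.7 and 59.9 in WT-vector cells, values that overlap, with a log2 fold change of -0.024 ± 0.038.

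POLR2A was the exception of this role. It had 368, 366, 367 and 358 CPM in WT-vector and 389, 397, 399 and 399 in knockout-vector cells under vehicle, so all 4 knockout-vector libraries were above all WT-vector ones (log2 fold change 0.12 ± 0.021). Under antimycin the same lines overlapped, with 559.5 to 588 and 561 to 589 CPM (0.0038 ± 0.02), and the dMTS-DELE1 cells were below both with 448, 425, 439.8 and 443 CPM (-0.39 ± 0.021). GPS2, a subunit of the NCOR1 corepressor complex, did not pass in knockout-vector cells (0.009 ± 0.036).

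KDM6B, a demethylase of lysine 27 of histone H3, went opposite ways in the lines. It had 31.1, 31.8, 32.6 and 32.0 CPM in WT-vector cells, 27.4, 26.7, 29.7 and 25.4 in knockout-vector and 29.5, 27.2, 26.2 and 26.7 in F137S cells, all low, and 57.5, 58.3, 53.4 and 59.8 in dMTS-DELE1 cells, all high. Its log2 fold changes against WT vector were -0.22 ± 0.052, -0.22 ± 0.052 and 0.84 ± 0.049. Set against F137S cells, the dMTS-DELE1 cells were higher by 1.06 ± 0.05 under vehicle and 0.92 ± 0.049 under antimycin, the largest differences among the 59 in these 2 comparisons.

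Membrane traffic and motors held 10 genes, of which 9 were lower and 0 higher in knockout-vector cells (median -0.13) and all 10 were lower in dMTS-DELE1 cells (median -0.22). VPS53, a subunit of the complexes that tether vesicles returning from endosomes, had 58.0, 54.8, 59.6 and 58.4 CPM in WT-vector and 45.3, 44.3, 42.5 and 44.3 in knockout-vector cells, with no overlap (-0.39 ± 0.046). STX8, a SNARE of late endosomes, was counted more thinly, with 10.8, 11.6, 9.35 and 11.5 CPM in WT-vector and 7.69, 7.86, 9.48 and 6.83 in knockout-vector cells. Here 1 knockout-vector library was above the lowest WT-vector one, and the log2 fold change was -0.44 ± 0.089. KIF1C, a kinesin that carries vesicles toward microtubule plus ends, had 173, 170.3, 172 and 164 CPM in WT-vector, 144, 139, 144 and 139.8 in knockout-vector and 120.3, 129, 118 and 124 in dMTS-DELE1 cells, 3 groups with no overlap.

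The cytoskeleton and cell polarity genes numbered 7, of which 6 were lower in knockout-vector and all 7 in F137S and dMTS-DELE1 cells (medians -0.20, -0.27 and -0.38). PFN1, the actin monomer-binding profilin, had 382, 392, 381 and 386 CPM in WT-vector, 312, 310.3, 329.8 and 317 in knockout-vector and 257, 273, 231 and 265 in dMTS-DELE1 cells. MYH10, the heavy chain of non-muscle myosin IIB, had 316, 317, 307 and 304 CPM in WT-vector, 260.5, 260.4, 260.1 and 260.1 in knockout-vector and 208, 213, 219 and 219.9 in dMTS-DELE1 cells. In both genes the 3 lines stood in the same order with no overlap, and the log2 fold changes in dMTS-DELE1 cells were -0.59 ± 0.035 and -0.53 ± 0.021.

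The 4 redox, mitochondrial and amino acid genes were C1QBP, TXNDC17, NXN and SRR, of which 3 were lower in knockout-vector and in dMTS-DELE1 cells (medians -0.25 and -0.55). TXNDC17, a thioredoxin-like disulfide reductase, had 49.8, 49.4, 50.7 and 48.9 CPM in WT-vector, 36.7, 39.0, 38.5 and 38.3 in knockout-vector, 36.8, 36.4, 35.9 and 37.4 in F137S and 29.7, 30.8, 27.6 and 29.2 in dMTS-DELE1 cells. The dMTS-DELE1 libraries were the lowest, and their log2 fold change of -0.76 ± 0.046 was the lowest of the 59 in that line. C1QBP, a protein of the mitochondrial matrix, had 517, 511, 507 and 518 CPM in WT-vector, 414, 424, 422 and 416 in knockout-vector and 336, 333, 330.5 and 351 in dMTS-DELE1 cells, again with no overlap (-0.29 ± 0.02 and -0.60 ± 0.02). In protein turnover 3 of 4 were lower in knockout-vector cells (median -0.16). COPS3, a subunit of the COP9 signalosome, had 241, 246, 236 and 242 CPM in WT-vector and 209, 201, 205 and 201 in knockout-vector cells.

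Signalling held 10 genes, of which 4 were lower and 2 higher in knockout-vector cells (25.6% and 22.7% of all tested genes, median -0.14). In dMTS-DELE1 cells 5 were lower and 2 higher (32.6% and 29.2%, median -0.092). DVL2, a scaffold of Wnt signalling, was higher in knockout-vector cells, with 101, 101, 103 and 102 CPM against 90.2, 93.2, 95.3 and 97.3 in WT-vector cells (0.12 ± 0.032). MAPK7, the kinase also known as ERK5, was higher by 0.12 ± 0.049. YWHAE, the epsilon form of the 14-3-3 adaptor proteins, varied as much within groups as between them: it had 76.6, 96.4, 74.6 and 98.8 CPM in WT-vector and 176, 61.7, 80.6 and 60.03 in dMTS-DELE1 cells. Replicate 1 of the dMTS-DELE1 cells was above all the others, and the log2 fold change of 0.13 ± 0.19 in that line became -0.35 without it.

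**Figure D4:**
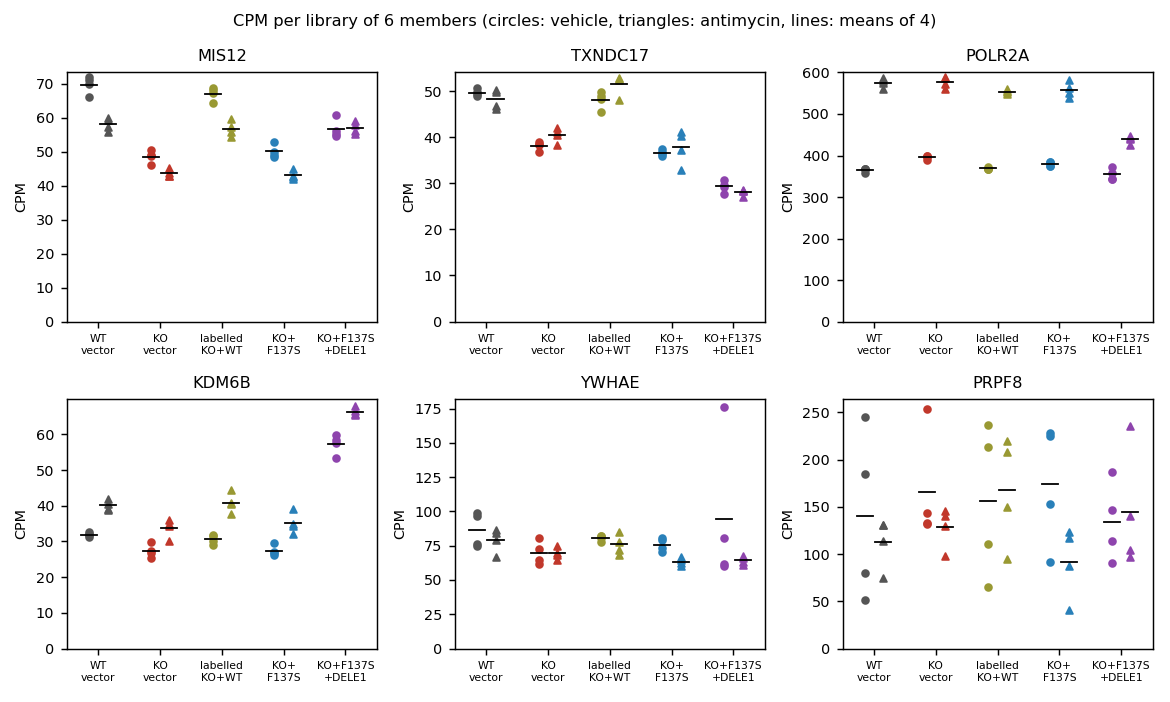
CPM in each of the 40 libraries for MIS12, TXNDC17, POLR2A, KDM6B, YWHAE and PRPF8, by line and treatment, with group means. MIS12 and TXNDC17 are low in the knockout-vector, F137S and dMTS-DELE1 cells under vehicle, KDM6B is high in dMTS-DELE1 cells, and PRPF8 and YWHAE scatter within groups.

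The sgSLC25A12 lines were also set against each other. Between F137S and knockout-vector cells edgeR called 0 of the 59 genes under vehicle (0% of all tested genes lower, 0.0836% higher) and 0 under antimycin (0% and 0.114%). At an unadjusted p under 0.05, 3 were lower and 0 higher under vehicle (477 and 538 of all tested genes), 5 lower and 1 higher under antimycin (508 and 550), and DESeq2 also called 0. Between dMTS-DELE1 and F137S cells, 30 were lower and 6 higher under vehicle (24.1% and 17.7% of all tested genes; median -0.09), and 29 lower and 13 higher under antimycin (28.8% and 25.5%; median -0.08). These comparisons share libraries with those against WT vector.

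Promoters of 55 of the 59 genes matched RefSeq's table (GRCh38.p14), in 80 windows from 250 bases before to 50 bases after a gene start. Motifs were searched on both strands. The GC box GGGCGG was in 78.8% of the members' windows, in 50.6% of the 393 windows of other genes of the arm and in 45.0% of all 35116. The median G and C content was 69% in the members' windows and 58.7% in all. The CARE motif TGATGNAA, bound by ATF4, was in 0% against 3.62%, TATAAA in 1.25% against 11.5%, CCAAT in 28.8% against 34.6%, the ETS motif CCGGAAG in 16.2% against 10.3%, and the palindromic NRF1 motif in 1.25% against 1.24%. The GC box can lie inside longer G-rich stretches, and these motifs can overlap each other. A match is a run of letters and says nothing about binding.

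The bases just before the start are printed for 4 genes that differ in their values, namely TXNDC17 (low in the 3 lines), KDM6B (opposite between lines), POLR2A (higher with antimycin) and METTL16 (lower with antimycin), without bases inside any annotated gene. Capitals mark a motif on either strand: GC boxes in the TXNDC17, KDM6B and POLR2A stretches, and a CCAAT box in that of METTL16. They lie at chr17:6640810-6641059 (plus strand), chr17:7833967-7834216 (plus), chr17:7484250-7484365 (plus) and chr17:2511889-2512138 (minus).
TXNDC17: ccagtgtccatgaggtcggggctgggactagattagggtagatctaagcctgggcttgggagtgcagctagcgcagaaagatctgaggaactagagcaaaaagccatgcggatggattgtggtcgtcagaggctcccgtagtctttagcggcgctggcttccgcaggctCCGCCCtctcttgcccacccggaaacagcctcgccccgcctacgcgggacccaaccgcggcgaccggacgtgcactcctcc
KDM6B: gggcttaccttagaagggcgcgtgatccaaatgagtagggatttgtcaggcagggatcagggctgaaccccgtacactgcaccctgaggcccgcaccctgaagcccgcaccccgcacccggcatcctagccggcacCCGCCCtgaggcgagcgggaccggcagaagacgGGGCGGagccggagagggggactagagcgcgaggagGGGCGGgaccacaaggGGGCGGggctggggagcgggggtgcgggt
POLR2A: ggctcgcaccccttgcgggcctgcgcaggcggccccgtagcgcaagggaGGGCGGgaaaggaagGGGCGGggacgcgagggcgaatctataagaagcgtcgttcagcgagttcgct
METTL16: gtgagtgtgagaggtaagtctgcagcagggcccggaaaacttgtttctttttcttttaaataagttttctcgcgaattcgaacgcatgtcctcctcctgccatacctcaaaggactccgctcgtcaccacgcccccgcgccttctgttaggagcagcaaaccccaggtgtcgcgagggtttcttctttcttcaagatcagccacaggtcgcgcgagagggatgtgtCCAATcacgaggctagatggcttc
The KDM6B stretch holds 4 GC boxes, that of POLR2A 2 and that of TXNDC17 1; the METTL16 stretch has 1 CCAAT box and no GC box among these letters.

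The response to antimycin within each line was not used to choose the genes and was tested. In WT-vector cells 16 of the 59 genes rose and 23 fell (25.5% and 26.4% of all tested genes rose and fell). In knockout-vector cells 15 rose and 25 fell (26.4% and 24.7%), in F137S cells 16 and 23 (26.3% and 24.9%), and in the libraries labelled SLC25A12-WT 13 and 23 (25.9% and 26.4%). In dMTS-DELE1 cells 10 rose and 23 fell (17.6% and 17.3%). The median log2 fold change of the 59 lay between -0.063 and -0.016 in the 5 lines, and that of all tested genes between 0.0097 and 0.018. The genes went both ways with antimycin in each line.

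The direction of a gene's response was largely the same in all lines. Called higher in all 5 lines were 9 genes (15.3%, against 11.3% of all tested genes): POLR2A, KDM6B, PER1, VAMP2, GPS2, DVL2, MAPK7, FLII and LLGL1. Called lower in all 5 were 15 (25.4%, against 13.1%): SMG6, RAI1, METTL16, VPS53, MAP2K4, NCOR1, PAFAH1B1, NUP88, PITPNA, RABEP1, UBE2G1, PHF23, TSR1, ELAC2 and MYH10. In at least 3 lines 14 rose (23.7%, against 23.5%) and 24 fell (40.7%, against 23.6%). RPA1, a subunit of the single-stranded DNA-binding protein RPA, was the one member called in opposite directions in different lines, and 11 members were called in no line. Across the 59 genes the responses of WT-vector and knockout-vector cells, which share no library, had a Pearson r of 0.954. Spearman's rho was 0.930, and Pearson's r over all tested genes was 0.676. That r of 0.954 was the highest among the pairs of lines. The lowest was 0.685, between F137S and dMTS-DELE1 cells (0.552 over all tested genes). Knockout-vector and dMTS-DELE1 cells had the fewest genes of the same sign, 45 of 59. These values are given as a description.

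Among those that rose, POLR2A changed most. It had 368, 366, 367 and 358 CPM under vehicle and 579.7, 575, 588 and 559.5 under antimycin in WT-vector cells, with no overlap. Its log2 fold change was 0.66 ± 0.021 (SE; edgeR adjusted p = 8.9e-42), and in dMTS-DELE1 cells 0.31 ± 0.021 (edgeR adjusted p = 2.1e-21). PER1, a repressor of the circadian clock, had 45.03, 45.00, 46.0 and 47.8 CPM under vehicle and 59.3, 54.4, 57.2 and 55.6 under antimycin (0.30 ± 0.042, edgeR adjusted p = 3.8e-09). VAMP2, the vesicle SNARE synaptobrevin, had 33.8, 35.6, 36.3 and 38.2 CPM under vehicle and 48.5, 43.8, 42.3 and 43.9 under antimycin (0.31 ± 0.045, edgeR adjusted p = 7.9e-09). KDM6B had 31.1, 31.8, 32.6 and 32.0 CPM under vehicle and 38.8, 40.5, 41.8 and 39.2 under antimycin (0.33 ± 0.05, edgeR adjusted p = 4.6e-08). All 4 genes were higher in each of the 4 treated WT-vector libraries than in any untreated one.

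Among those that fell, RAI1, a chromatin-associated regulator of transcription, had 71.7, 78.7, 72.1 and 76.0 CPM under vehicle and 51.1, 52.4, 51.2 and 45.3 under antimycin in WT-vector cells (-0.58 ± 0.052, edgeR adjusted p = 6.2e-13). SMG6 had 32.2, 30.1, 31.5 and 29.96 CPM under vehicle and 20.5 to 22.5 under antimycin (-0.53 ± 0.055, edgeR adjusted p = 1.3e-13). METTL16 had 108, 102, 112 and 105 CPM under vehicle and 76.6, 75.2, 77.5 and 76.8 under antimycin (-0.48 ± 0.037, edgeR adjusted p = 3.4e-18). VPS53 fell by 0.37 ± 0.046 on the log2 scale (edgeR adjusted p = 8.2e-11). In dMTS-DELE1 cells these falls were -0.24 ± 0.052, -0.32 ± 0.054, -0.19 ± 0.037 and -0.21 ± 0.047, all past the threshold. Treated and untreated WT-vector libraries did not overlap for RAI1, SMG6, METTL16 or VPS53.

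**Figure D5:**
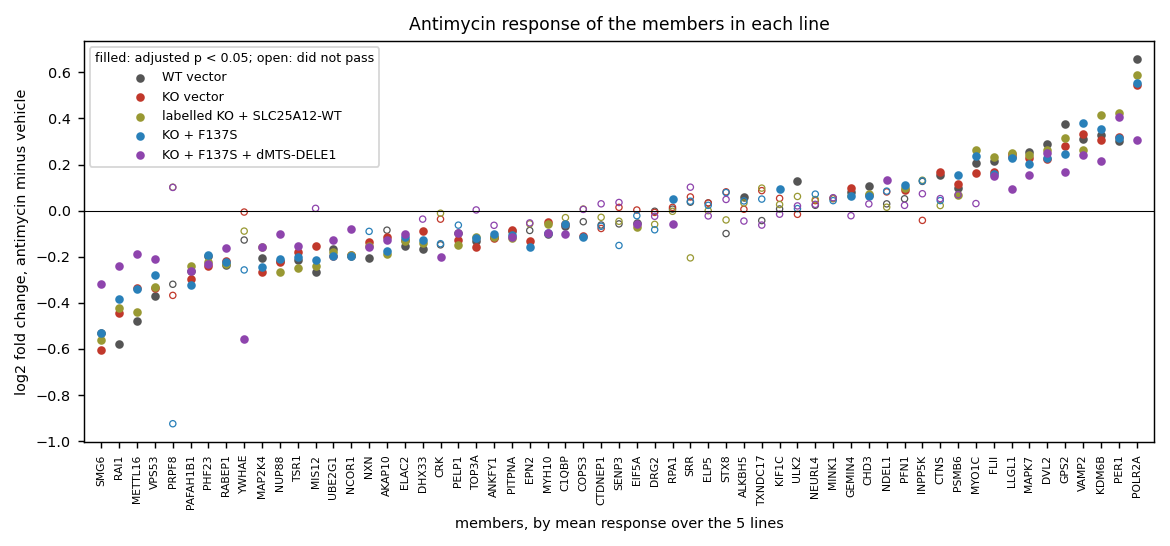
Log2 fold change of antimycin against vehicle for each of the 59 genes in each of the 5 lines, ordered by the mean over lines; filled points passed the test. POLR2A is at the upper end and RAI1 and SMG6 near the lower end, and most genes have the same sign in all lines.

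By role, transcription, chromatin and DNA genes went both ways with antimycin: 5 of 13 rose and 6 fell in at least 3 lines, where 23.5% of all tested genes rose and 23.6% fell. Of the 11 RNA processing and translation genes 1 rose and 6 fell, of the 10 traffic genes 1 rose and 5 fell, and of the 7 cytoskeleton genes 4 rose and 2 fell; with so few genes in a role, nothing is read from these counts. The genes that rose in at least 3 lines had a median gene length of 10.96 kb and those that fell 83.0 kb; over all tested genes the values were 20.2 and 53.3 kb. Across the 59 genes, length and the WT-vector response had a Spearman rho of -0.54 (-0.18 over all tested genes), while length and the knockout-vector difference under vehicle had -0.03, both as descriptions.

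The call of YWHAE in dMTS-DELE1 cells depended on single libraries. Its response was -0.56 ± 0.19 (edgeR adjusted p = 0.025) and became -0.078 (edgeR adjusted p = 0.64) without replicate 1 of the vehicle group, and -0.53 (edgeR adjusted p = 0.06) without replicate 1 of the antimycin group. MIS12 fell in WT-vector cells (-0.27 ± 0.038, edgeR adjusted p = 6.3e-09), and its value in dMTS-DELE1 cells was 0.0099 ± 0.038 (edgeR adjusted p = 0.87).

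Differences of the antimycin response from that in WT-vector cells were also counted among the 59. In knockout-vector cells 1 was lower and 0 higher (0.729% and 0.836% of all tested genes), and in F137S cells 1 and 0 (0.771% and 0.717%), in both cases POLR2A. At an unadjusted p under 0.05, 5 were higher in knockout-vector and 3 in F137S cells (1132 and 1112 of all tested genes), and DESeq2 called 0 higher. In the libraries labelled SLC25A12-WT edgeR called 0 (0% in each direction), with 1 lower and 3 higher at an unadjusted p under 0.05 (385 and 371 of all tested genes) and 0 by DESeq2. In dMTS-DELE1 cells 5 were lower and 6 higher (5.69% and 10.5%). Of these, POLR2A, GPS2, MYO1C and LLGL1 are genes that rose in WT-vector cells and had a smaller log2 fold change in dMTS-DELE1 cells. RAI1, METTL16 and MIS12 fell in WT-vector cells and had a value closer to 0 in dMTS-DELE1 cells. POLR2A no longer passed in knockout-vector cells without WT-vector vehicle replicate 4, nor in F137S cells when any of 9 libraries was left out. The number lower in dMTS-DELE1 cells was 9 without WT-vector antimycin replicate 4, 8 without replicate 1 of either WT-vector group or without dMTS-DELE1 antimycin replicate 4, and 3 without dMTS-DELE1 vehicle replicate 2 or replicate 4. These differences reuse libraries of the line contrasts and are given as a description.

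As to counting, 28 of the 59 genes overlap another tested gene of the arm in RefSeq, among them RABEP1 with NUP88 and TXNDC17 with MED31. The sources used here do not state whether reads were counted by strand, so reads in such overlaps cannot be told apart.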

How the data were processed

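The 59 genes and the role lists were chosen with earlier results of these data known. RNA was measured in 40 libraries, 4 for each of 10 groups taken from the sample titles. The authors deposited raw counts per gene symbol without normalization; HISAT2 2.1.0, featureCounts 2.0.6 and hg38 are named in the submitters' processing notes, and their settings are not stated there. Counts were filtered with edgeR's filterByExpr, which left 16739 genes, and scaled by TMM. One robust quasi-likelihood model with a coefficient per group was fitted over all 40 libraries (R 4.3.3, edgeR 4.0.16, limma 3.58.1, statmod 1.5.0), and 21 comparisons were tested as contrasts with Benjamini-Hochberg adjustment over all tested genes and a threshold of 0.05. CPM values are relative to TMM-scaled totals of the tested genes, with a prior count of 2 on the log2 scale. CPM is not scaled to gene length, so levels are not compared between genes. The common biological coefficient of variation was 0.0509.

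Gene positions and promoters came from RefSeq (GRCh38.p14), which placed 98.3% of the tested genes, with 25 Mb as the end of the short arm of chromosome 17. The genes named were the lowest and highest in the line contrasts, the most counted of each role, the first and last along the arm and the strongest antimycin responders called in at least 3 lines; FLII, LLGL1 and other genes in short lists are named because they make up a count. The test was checked on simulated counts of knockout-vector and WT-vector cells under vehicle, in a fit of these groups alone. It recovered 5 of 50 changes of 1.1-fold, 23 of 50 of 1.15-fold, 37 of 50 of 1.25-fold and 47 of 50 of 1.5-fold. Among 119 calls 7 were false. A gene that did not pass may therefore still differ by such small amounts. Alternatives were DESeq2 1.42.0 size factors and its Wald test, TMM factors without chromosomes 17 and 19, no filter on low counts, a fit of the compared groups alone, a fit without the libraries labelled SLC25A12-WT, a replicate block, and each library left out in turn.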

Additional observations from a re-analysis of the deposited data

Results flagged for a closer look

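Of 160 groups of 4 libraries examined (15 genes and the mean over the 59, in 10 groups), 10 had a library at one end set unusually far from the other 3 by Dixon's ratio of its gap to the group's range; chance alone gives about 1 in 20. VPS53 had 45.7 CPM in replicate 3 of WT-vector cells under antimycin, above 44.3 to 44.4 in the others. PRPF8 had 254 CPM in replicate 2 of knockout-vector cells under vehicle, against 132 to 143. SMG6 had 34.9 CPM in replicate 3 of the libraries labelled SLC25A12-WT under vehicle, and TXNDC17 48.0 CPM in replicate 2 of the same line under antimycin, high and low in their groups. EIF5A had 583 CPM in replicate 1 of dMTS-DELE1 cells under antimycin, the highest of its group. POLR2A stood apart in 3 vehicle groups: 358 CPM in replicate 4 of WT-vector cells (lowest), 389 in replicate 1 of knockout-vector cells (lowest) and 373 in replicate 2 of the libraries labelled SLC25A12-WT (highest). STX8 had 7.46 CPM in replicate 3 of knockout-vector cells under antimycin, the lowest of its group. The mean log2 CPM of the 59 genes was 6.14 in replicate 3 of dMTS-DELE1 cells under vehicle, below 6.18 to 6.19 in the others. No group was changed for these libraries.

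In 13 cases the antimycin response of a gene was called different from that in WT-vector cells by edgeR. Such a difference is built from the line contrasts used to choose the genes, so these cases are a description. POLR2A rose less than in WT-vector cells, by -0.12 in knockout-vector, -0.10 in F137S and -0.35 in dMTS-DELE1 cells on the log2 scale. Its calls in knockout-vector and F137S cells depended on single libraries. In dMTS-DELE1 cells the response was also lower for GPS2 (-0.21), MYO1C (-0.18), LLGL1 (-0.14) and ALKBH5 (-0.10). It was higher for RAI1 (0.34), METTL16 (0.29), MIS12 (0.28), TOP3A (0.13), DHX33 (0.13) and NCOR1 (0.12), all of which fell in WT-vector cells.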

How the results depend on the processing

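The low level of the 59 genes in knockout-vector, F137S and dMTS-DELE1 cells kept its direction under every alternative run, and the counts called lower against WT vector stayed within 1.5 times of those reported. In dMTS-DELE1 cells under vehicle the median log2 fold change was -0.27 with DESeq2 size factors and with DESeq2's Wald test, -0.27 with the compared groups alone and without the libraries labelled SLC25A12-WT, and -0.31 with TMM factors that left out chromosomes 17 and 19, which gave -0.31 under antimycin too. In F137S cells under vehicle it was -0.19 with no filter on low counts. Between dMTS-DELE1 and F137S cells under vehicle it was -0.071 with the compared groups alone. TMM factors without chromosomes 17 and 19 gave 1 gene higher in F137S and 1 in dMTS-DELE1 cells under vehicle, and 0 genes with a lower antimycin response in F137S than in WT-vector cells; the compared groups alone and the replicate block also gave 0 for the latter. The median difference of the response from WT-vector cells was -0.014 in knockout-vector and -0.015 in F137S cells without the libraries labelled SLC25A12-WT, and -0.020 in dMTS-DELE1 cells with the compared groups alone.

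With each library left out in turn, the median against WT vector ran from -0.30 to -0.27 in dMTS-DELE1 cells under vehicle, from -0.30 to -0.28 under antimycin, and from -0.22 to -0.20 in F137S cells under antimycin. Between dMTS-DELE1 and F137S cells it ran from -0.11 to -0.064 under vehicle and from -0.11 to -0.076 under antimycin. The median response to antimycin ran from -0.057 to -0.029 in WT-vector cells, -0.044 to 0.00079 in knockout-vector cells, -0.031 to -0.0027 in the libraries labelled SLC25A12-WT, -0.080 to -0.026 in F137S cells and -0.045 to -0.0095 in dMTS-DELE1 cells. Its difference from WT-vector cells ran from -0.015 to 0.0029 in knockout-vector, -0.021 to 0.0056 in F137S and -0.034 to 0.0051 in dMTS-DELE1 cells. The number higher than WT vector ran from 1 to 2 in F137S and 1 to 4 in dMTS-DELE1 cells under vehicle, and from 0 to 1 in knockout-vector cells under antimycin. The number with a lower response than in WT-vector cells ran from 0 to 1 in knockout-vector and F137S cells and from 3 to 9 in dMTS-DELE1 cells. The causes of these shifts were not tested.

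Among the responses near 0, with each library left out in turn, that of YWHAE in knockout-vector cells (-0.0061) ran from -0.056 to 0.069 and that of MIS12 in dMTS-DELE1 cells (0.0099) from -0.016 to 0.047, and so changed sign; none passed. With the compared groups alone YWHAE passed in F137S cells (-0.26, edgeR adjusted p = 1.3e-06) and did not in dMTS-DELE1 cells (-0.56, edgeR adjusted p = 0.33).

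Replicate numbers did not pair the libraries: residuals of libraries with the same number in different groups correlated between -0.0588 and 0.0510. With a replicate block, 45 genes were lower in knockout-vector cells under vehicle (median -0.19) and 45 in F137S cells under antimycin. Thinly counted genes such as STX8 and those with large spread within groups, PRPF8 and YWHAE, limit what could be called.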

Other observations

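Of the 232 other tested genes of the arm, some from the low and high ends in knockout-vector cells under vehicle are given here, among those with a mean log2 CPM of at least 1. DBIL5P, a transcribed pseudogene (chr17:752333-755336, GRCh38.p14) that overlaps GEMIN4, had 1.46 to 2.09 CPM in WT-vector cells under vehicle, 179 to 182 in knockout-vector, 174 to 182 in F137S and 122 to 126 in dMTS-DELE1 cells. The libraries labelled SLC25A12-WT had 1.43 ± 0.165 (SD, n = 4). Its log2 fold change in knockout-vector cells was 6.76 ± 0.061. SPNS2, a transporter of sphingosine 1-phosphate, had 6.93 to 7.42 CPM in WT-vector and 2.49 to 3.62 in knockout-vector cells (-1.28 ± 0.12). TIMM22, a translocase of the mitochondrial inner membrane, scattered from 1.99 to 13.4 CPM within WT-vector cells, and its value of -1.17 ± 0.78 did not pass. BCL6B, a transcriptional repressor, had a log2 fold change of -0.87 ± 0.047. WSCD1 was called higher in knockout-vector (0.41 ± 0.089), F137S (0.52) and dMTS-DELE1 cells (0.49). PIK3R5, a regulatory subunit of phosphoinositide 3-kinase gamma, had 0.51 ± 0.19 in knockout-vector cells. It was thinly counted, with 0.76 to 1.93 CPM in WT-vector and 1.73 to 2.39 in knockout-vector libraries, which overlap. It did not pass in F137S (0.32) or dMTS-DELE1 cells (0.27) under vehicle.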
